A study of Mus musculus with 24 samples.

Results

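The genes described are 8 mouse genes used as marks of mast cells and basophils, chosen by name: Il1rl1, Cpa3, Ms4a2, Fcer1a, Gzmb, Hdc, Mcpt8 and Prss34. They are 8 of the 56748 genes in a table of RNA sequencing read counts, and each name matched 1 gene. Stem cells and progenitors sorted from mouse bone marrow were sequenced in 24 libraries, in 8 groups of 3: KO and WT haematopoietic stem cells (HSC), KO and WT MPP1, KO and WT MPP2, and KO and WT MPP4, where MPP stands for multipotent progenitor. Per the labels, KO and WT animals alike had been given tamoxifen; strain, age, the targeted gene, the Cre driver and the surface markers used for sorting are not given in the sources used here, and the tissue field reads blood. The study asks about RNA held in P-bodies, the cytoplasmic granules that store untranslated mRNA, and the comparison described is KO against WT within each population.

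Mast cells and basophils are granulocytes that carry the high-affinity receptor for immunoglobulin E and release histamine and proteases from granules. Both arise in the marrow from progenitors that express Gata2, and both respond to interleukin 3 and, through the Il1rl1 product ST2, to interleukin 33. Their genes can be read at a low level in multipotent progenitors before any mature cell is formed. Among the 8 genes, Il1rl1 and the receptor subunits Fcer1a (alpha chain) and Ms4a2 (beta chain) encode receptors. Hdc encodes the enzyme that makes histamine, Cpa3 a carboxypeptidase of mast cell granules, Mcpt8 and Prss34 serine proteases of mouse basophils, and Gzmb a serine protease best known from cytotoxic lymphocytes.

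Il1rl1 RNA was higher in KO than in WT MPP1 and MPP2-labelled cells and lower in KO than in WT HSC and MPP4-labelled cells, with no overlap between the groups in any population. Cpa3, Ms4a2 and Mcpt8 were higher in KO than in WT in both MPP2-labelled and MPP4-labelled cells, by 4.42-fold to 29.7-fold. The largest of these, Mcpt8 in MPP4-labelled cells, rests on WT counts of 0, 11 and 2. Prss34 was called higher in KO MPP2-labelled cells, Hdc passed edgeR's test in no population, and Fcer1a and Gzmb were too low to be followed.

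Total counts per library were 2894916 to 3667509 in KO and 2540511 to 3807003 in WT. In the populations labelled MPP2 and MPP4, RNA of the markers usually taken to tell them apart (Flt3, Slamf1 and Dntt) went against the labels in both genotypes. Cd48, taken as a marker of both, does not tell them apart. Flt3, a receptor typical of lymphoid-primed MPP4, had 1610, 1631 and 1282 counts in KO and 3789, 3995 and 3388 in WT MPP2-labelled libraries, against 272, 287 and 297 in KO and 271, 199 and 173 in WT MPP4-labelled ones. Slamf1, which encodes CD150 of HSC and MPP2, had 28, 5 and 5 counts in KO and 30, 25 and 22 in WT MPP2-labelled libraries, against 395, 233 and 267 in KO and 119, 127 and 155 in WT MPP4-labelled ones. Dntt, a lymphoid gene, followed Flt3. The names "MPP2-labelled" and "MPP4-labelled" are therefore used, with no new name given, and every KO value is set against the WT value of the same label. Ddx6, which encodes a helicase needed for P-bodies and is not named in the labels as the target, had 194 to 308 counts in KO and 154 to 319 in WT libraries, so this count did not mark the KO-labelled libraries. Within populations, Ddx6 was called higher in KO MPP1 (log2 0.61 ± 0.18, SE, edgeR adjusted p = 0.0211) and passed the test in no other population. KO and WT are used as the labels give them.

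A diffuse background also differed between genotypes. Reads over 2002 olfactory and vomeronasal receptor genes, which these cells are not known to use, were turned into a rate per kilobase and applied to the span of every gene. By this estimate the background made up 5.46% ± 0.263 of KO and 22% ± 1.53 of WT HSC counts, 13.5% ± 0.236 of KO and 23.7% ± 0.861 of WT MPP1 counts, 9.32% ± 0.625 of KO and 11.4% ± 0.141 of WT MPP2-labelled counts, and 18% ± 0.393 of KO and 29.8% ± 0.0594 of WT MPP4-labelled counts (SD, n = 3 each). The background expected for a gene is given below where its counts come near it, and its part in those results was not tested. The labels do not say that the 3 libraries of a group come from separate animals, and each p-value speaks to the spread of these 24 libraries alone, part of which may be technical.

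Il1rl1 (chromosome 1, plus strand, 6894 exonic bases) encodes the receptor for interleukin 33, present on mast cells, basophils, group 2 innate lymphoid cells and some T cells. MPP2-labelled libraries had 740, 1032 and 882 Il1rl1 counts in KO and 81, 59 and 61 in WT. MPP1 libraries had 554, 659 and 597 in KO and 110, 88 and 147 in WT. Every KO library stood above every WT library in both populations. In MPP4-labelled cells the order was the opposite one, with 148, 116 and 147 counts in KO and 325, 369 and 365 in WT. HSC libraries had 2, 8 and 8 counts in KO and 21, 59 and 39 in WT, where the background alone would give a mean of 5.27 in KO and 20.4 in WT, so the lowest of all 8 groups, KO HSC, lay at the background.

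In CPM, counts relative to the scaled library total, Il1rl1 averaged 317 ± 25.7 in KO and 20.6 ± 4.26 in WT MPP2-labelled cells, a 15.4-fold difference (log2 fold change 3.94 ± 0.23, here and below ± SE; adjusted p = 3.42e-17, quasi-likelihood F test of edgeR, Benjamini-Hochberg over 21964 genes, as for every adjusted p that follows). In MPP1 it averaged 183 ± 7.59 in KO and 32.9 ± 8.05 in WT, 5.56-fold higher in KO (log2 2.47 ± 0.22; edgeR adjusted p = 7.28e-12). In MPP4-labelled cells it averaged 40.5 ± 5.4 in KO and 108 ± 14.9 in WT, 2.65-fold lower in KO (log2 -1.41 ± 0.21; edgeR adjusted p = 2.58e-06). In HSC it averaged 1.98 ± 1.11 in KO and 10.9 ± 4.92 in WT, 5.37-fold lower in KO (log2 -2.43 ± 0.37; edgeR adjusted p = 9.52e-07). These libraries are bulk samples, in which fewer cells of a type and less RNA per cell cannot be told apart.

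Ordered by level over the 8 groups, Il1rl1 was highest in KO MPP2-labelled cells, then KO MPP1, then WT MPP4-labelled cells, each clear of the next. KO MPP4-labelled cells, WT MPP1 and WT MPP2-labelled cells came next, and neighbours among these overlapped. WT HSC and KO HSC were lowest and did not overlap. Within WT, MPP2-labelled cells stood below the mean of the other 3 populations (log2 -0.72 ± 0.20; edgeR adjusted p = 0.00459), and within KO far above it (log2 3.68 ± 0.17; edgeR adjusted p = 1.45e-21).

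**Figure D1:**
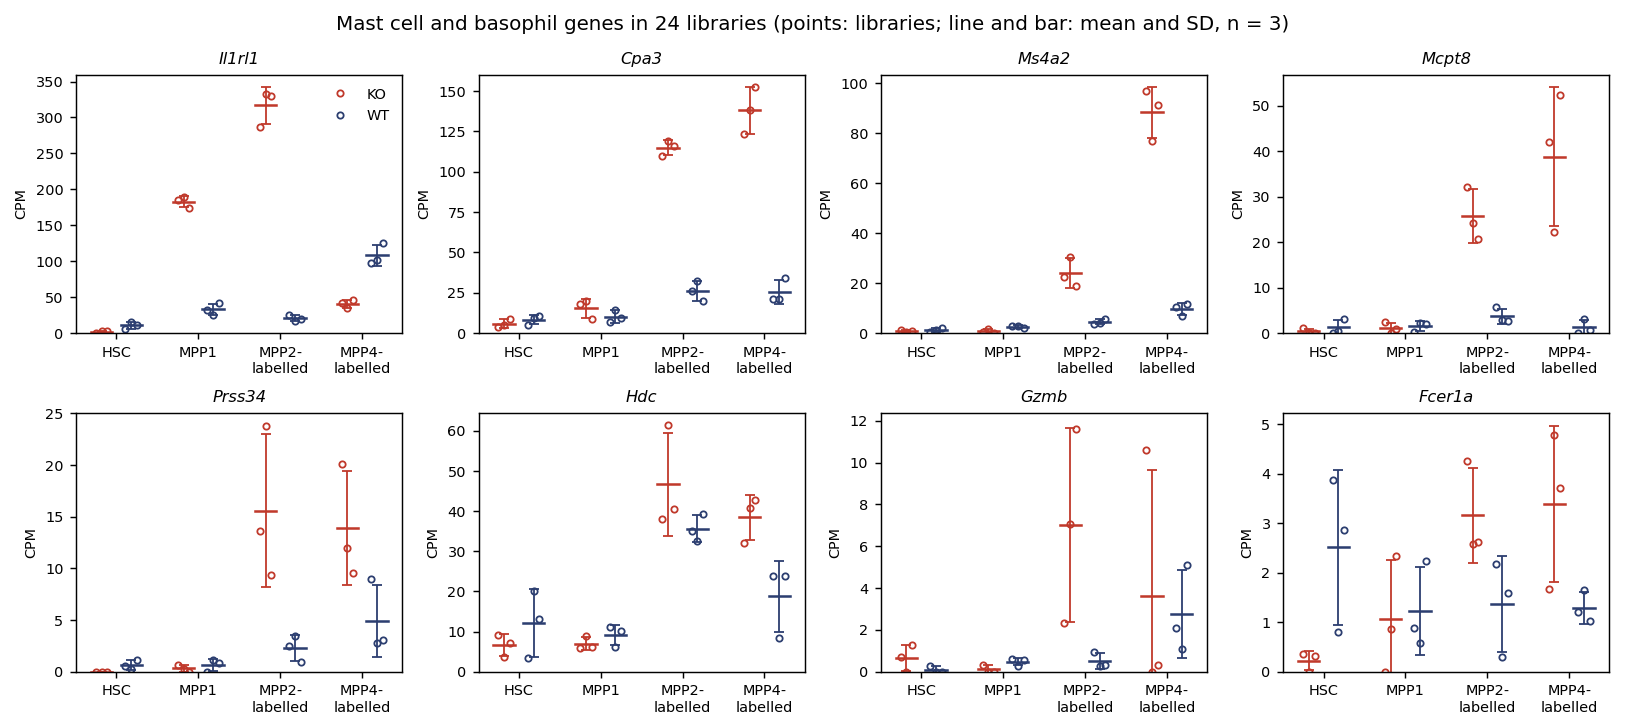
CPM (linear axes, each gene on its own scale) of the 8 genes in each of the 24 libraries, KO left of WT within each population; points are libraries, lines and bars the mean and SD of 3, with bars ending at 0. Il1rl1 has its highest KO values in MPP2-labelled cells and its highest WT values in MPP4-labelled cells, while Cpa3, Ms4a2, Mcpt8 and Prss34 stand out in KO MPP2-labelled and KO MPP4-labelled cells.

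Cpa3 (chromosome 3, minus strand, 1517 exonic bases) encodes mast cell carboxypeptidase, one of the main proteins of the mast cell granule, and is also read in basophil-mast cell progenitors. It had 283, 370 and 310 counts in KO and 84, 111 and 62 in WT MPP2-labelled libraries. MPP4-labelled libraries had 443, 462 and 494 in KO and 71, 77 and 100 in WT. KO and WT did not overlap in either population. Levels were 115 ± 4.8 CPM in KO and 26 ± 6.1 in WT MPP2-labelled cells, 4.42-fold higher in KO (log2 2.14 ± 0.30; edgeR adjusted p = 1.03e-06), and 138 ± 14.7 CPM in KO and 25.5 ± 7.52 in WT MPP4-labelled cells, 5.44-fold higher in KO (log2 2.44 ± 0.30; edgeR adjusted p = 4.8e-08). In HSC the counts were 11, 14 and 28 in KO and 18, 34 and 38 in WT (log2 -0.50 ± 0.37; edgeR adjusted p = 0.279), and in MPP1 53, 69 and 30 in KO and 23, 51 and 33 in WT (log2 0.59 ± 0.33; edgeR adjusted p = 0.258). Both pairs overlapped. The background expected in HSC was 3.91 counts in KO and 15.1 in WT.

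Ms4a2 (chromosome 19, minus strand, 2813 exonic bases) encodes the beta chain of the high-affinity immunoglobulin E receptor, which amplifies its signal. It had 347, 257 and 295 counts in KO and 35, 25 and 34 in WT MPP4-labelled libraries, and 58, 95 and 50 in KO and 12, 14 and 18 in WT MPP2-labelled ones. The groups did not overlap in either. Levels were 88.3 ± 10.2 CPM in KO and 9.64 ± 2.49 in WT MPP4-labelled cells, 9.16-fold higher in KO (log2 3.20 ± 0.46; edgeR adjusted p = 1.35e-06), and 23.9 ± 6.06 CPM in KO and 4.5 ± 1.08 in WT MPP2-labelled cells, 5.3-fold higher in KO (log2 2.41 ± 0.48; edgeR adjusted p = 0.00045). In MPP1 there were 1, 6 and 0 counts in KO and 10, 10 and 7 in WT, with no overlap and no call (log2 -1.82 ± 0.67, edgeR adjusted p = 0.0651). Without KO MPP1 replicate 2 it was called lower (edgeR adjusted p = 0.00683). The background expected in MPP1 was 2.91 counts in KO and 4.82 in WT. HSC libraries had 3, 1 and 2 counts in KO and 1, 5 and 7 in WT, too few for a fold.

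Fcer1a (chromosome 1, minus strand, 998 exonic bases) encodes the chain of the same receptor that binds immunoglobulin E. It was low in every group, at 6, 16 and 12 counts in KO and 4, 6 and 3 in WT MPP4-labelled libraries and 11, 8 and 7 in KO and 7, 1 and 5 in WT MPP2-labelled ones. MPP1 libraries had 0, 3 and 8 in KO and 3, 2 and 8 in WT, and HSC libraries 1, 0 and 1 in KO and 14, 3 and 10 in WT. The background expected was 0.872 to 3.88 counts. The HSC difference passed the test as lower in KO (edgeR adjusted p = 0.0464), with KO at the floor of 3 counts per library and WT at 2.51 ± 1.57 CPM, where the background would give 0.872 counts in KO and 3.38 in WT. That call held in 1 of 6 fits that each left out 1 HSC library, with edgeR adjusted p of 0.0387 to 0.148, and was lost with the background subtracted (edgeR adjusted p = 0.115). In MPP2-labelled and MPP4-labelled cells no difference was detectable at this depth (edgeR adjusted p = 0.611 and 0.449). The beta chain was thus read in KO MPP4-labelled cells at a level, per kilobase of exon, of 31.4 CPM, against 3.4 CPM for the alpha chain. Fcer1g, the shared gamma chain, had 22, 10 and 28 counts in KO and 40, 9 and 15 in WT MPP4-labelled libraries and passed the test in no population.

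Mcpt8 (chromosome 14, minus strand, 998 exonic bases) encodes a granule protease that marks mouse basophils. Its counts were 151, 74 and 169 in KO and 0, 11 and 2 in WT MPP4-labelled libraries, and 83, 75 and 55 in KO and 18, 10 and 8 in WT MPP2-labelled ones. No KO library fell within the WT range in either population. The mean background expected in MPP4-labelled libraries was 1.4 counts in KO and 2.03 in WT, so WT lay near it, apart from replicate 2. Levels were 38.8 ± 15.3 CPM in KO and 1.23 ± 1.58 in WT MPP4-labelled cells, 29.7-fold higher in KO (log2 4.89 ± 0.89; edgeR adjusted p = 6.61e-05), and 25.7 ± 5.93 CPM in KO and 3.68 ± 1.68 in WT MPP2-labelled cells, 6.91-fold higher in KO (log2 2.79 ± 0.79; edgeR adjusted p = 0.0189). The MPP4-labelled call held in 6 of 6 fits that each left out 1 library, with log2 fold changes of 4.32 to 6.75. The MPP2-labelled call was lost without WT replicate 2 (adjusted p = 0.092), WT replicate 3 (0.0951) or KO replicate 1 (0.0617), all by edgeR, with the log2 fold change at 2.59 or more. It held in 6 of 8 alternatives in processing. In HSC there were 3, 0 and 0 counts in KO and 0, 2 and 11 in WT, and in MPP1 7, 0 and 3 in KO and 1, 8 and 7 in WT, both near the background.

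Prss34 (chromosome 17, plus strand, 1220 exonic bases) encodes mouse mast cell protease 11, made mostly by basophils. MPP2-labelled libraries had 35, 74 and 25 counts in KO and 8, 12 and 3 in WT, without overlap, at 15.6 ± 7.44 CPM in KO and 2.3 ± 1.26 in WT, 6.66-fold higher in KO (log2 2.74 ± 0.83; edgeR adjusted p = 0.0328). The call was lost in 5 of 6 fits that each left out 1 library, with edgeR adjusted p of 0.103, 0.0636 and 0.161 without WT replicate 1, 2 or 3 and 0.0547 and 0.154 without KO replicate 1 or 2. It held in 6 of 8 alternatives in processing. MPP4-labelled libraries had 72, 40 and 31 counts in KO and 30, 10 and 9 in WT. These groups overlapped per library total, though not in CPM (9.59 to 20.1 in KO and 2.74 to 8.97 in WT). The difference missed the threshold (log2 1.49 ± 0.78, edgeR adjusted p = 0.193). In HSC Prss34 had 0 counts in all 3 KO libraries and 2, 1 and 4 in WT, a difference that passed the test as lower in KO (edgeR adjusted p = 0.0348) with both groups near the floor, so no fold is given. The HSC call held in 2 of 6 fits without 1 library, with edgeR adjusted p of 0.0311 to 0.111, and was lost with the background subtracted (edgeR adjusted p = 0.128). MPP1 libraries had 2, 1 and 0 counts in KO and 0, 4 and 3 in WT.

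Hdc (chromosome 2, minus strand, 6389 exonic bases) encodes histidine decarboxylase, which makes histamine in mast cells, basophils and some myeloid-biased stem cells. It had counts in every library, not all of them above the background, at 98, 191 and 108 in KO and 112, 113 and 123 in WT MPP2-labelled libraries, and 115, 136 and 138 in KO and 80, 31 and 70 in WT MPP4-labelled ones. The MPP2-labelled groups overlapped (46.7 ± 12.9 CPM in KO and 35.6 ± 3.38 in WT; log2 0.39 ± 0.41; edgeR adjusted p = 0.642). The MPP4-labelled groups did not overlap (38.5 ± 5.66 CPM in KO and 18.8 ± 8.91 in WT), yet the difference missed the threshold by edgeR (log2 1.04 ± 0.42; adjusted p = 0.0772). Of 8 alternatives, limma-voom alone called it higher (log2 1.16; adjusted p = 0.049), with an adjusted p of up to 0.508 in the others. HSC libraries had 26, 11 and 23 in KO and 12, 76 and 46 in WT (log2 -0.87 ± 0.46; edgeR adjusted p = 0.12); without WT replicate 1 that difference was called lower (log2 -1.31; edgeR adjusted p = 0.0186). In MPP1 the counts of 18, 31 and 21 in KO and 38, 22 and 36 in WT overlapped. The mean background expected was 3.77 counts in KO and 14.6 in WT HSC, so WT HSC replicate 1 lay below it. It was 9.09 in KO and 15.1 in WT MPP1, and 11.6 in KO and 16.8 in WT MPP4-labelled libraries. Hdc differed between populations in both genotypes. Within KO, MPP2-labelled cells exceeded the mean of the other 3 populations by a log2 of 1.94 ± 0.32 (edgeR adjusted p = 1.25e-05), and within WT by 1.47 ± 0.32 (edgeR adjusted p = 0.000384).

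Gzmb (chromosome 14, minus strand, 1436 exonic bases) encodes granzyme B. Its counts varied widely between libraries: 6, 22 and 31 in KO and 3, 1 and 1 in WT MPP2-labelled libraries, and 38, 0 and 1 in KO and 7, 4 and 15 in WT MPP4-labelled ones. The MPP2-labelled groups did not overlap, and the difference missed the threshold (edgeR adjusted p = 0.106). The MPP4-labelled log2 fold change was 0.40 ± 1.23 (edgeR adjusted p = 0.864) and turned to -3.87 without KO replicate 1. HSC libraries had 2, 0 and 4 in KO and 1, 0 and 0 in WT, and MPP1 libraries 1, 0 and 0 in KO and 2, 1 and 2 in WT.

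Counted over the 8 genes, all of which passed the filter on low counts, 5 were called higher and 0 lower in KO than in WT MPP2-labelled cells; of all 21964 genes tested, 3.73% were called higher and 4.17% lower. In MPP4-labelled cells 3 were higher and 1, Il1rl1, lower, against 11.4% of all genes higher and 6.47% lower. In MPP1 1, Il1rl1, was higher and 0 lower, against 8.71% and 4.9%. In HSC 0 were higher and 3 lower, against 18.3% and 24.8%, and of these 3 (Il1rl1, Fcer1a and Prss34) Il1rl1 alone had counts in KO above the floor. KO and WT did not overlap for 7 of the 8 genes in MPP2-labelled cells, 5 in MPP4-labelled cells, 2 in MPP1 and 3 in HSC, with counts taken per library total. Of all genes tested, 25.3% did not overlap in MPP2-labelled cells, 31% in MPP4-labelled cells, 34.6% in MPP1 and 50.1% in HSC. The median log2 fold change of the 8 genes was 2.57 in MPP2-labelled cells and 1.43 in MPP4-labelled cells, where that of all genes was -0.07 and -0.08. In MPP1 it was -0.46 against -0.10 for all genes, or -0.09 against -0.09 with groups at the floor set to 3 counts per library. In HSC it was -1.30 against -0.31, or -0.42 against -0.18 with the floor. The genes were picked by name with earlier results of these data known, so these counts describe them and test nothing. At an unadjusted edgeR p below 0.05, 0 were higher in HSC, 1 was lower in MPP1 and 0 were lower in MPP2-labelled cells. DESeq2 and limma-voom called 0 higher in HSC and 0 lower in MPP2-labelled cells, and DESeq2 called 1 (Ms4a2) lower in MPP1. In MPP2-labelled cells DESeq2 called 4 of the 8 genes higher and limma-voom 6, against 5 by edgeR.

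**Figure D2:**
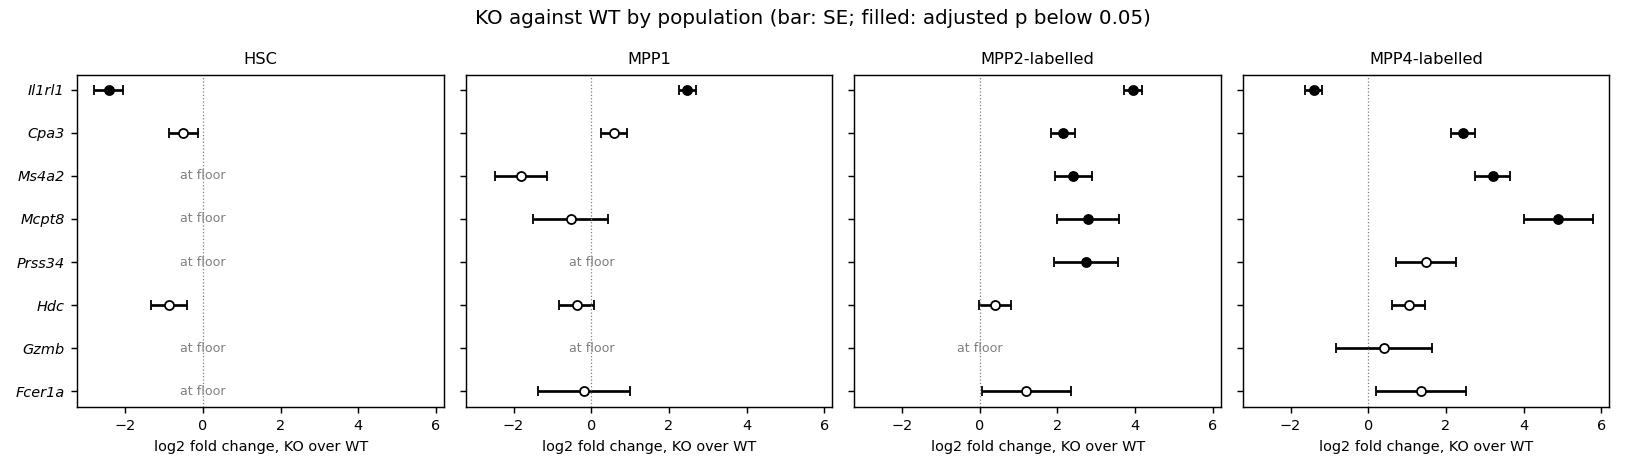
Log2 fold change of KO over WT (points) with its SE (bars) for the 8 genes in the 4 populations; filled points have an edgeR adjusted p below 0.05, and "at floor" stands where all 3 libraries of KO or of WT had 3 counts or fewer. Il1rl1 lies left of 0 in HSC and MPP4-labelled cells and right of 0 in MPP1 and MPP2-labelled cells, while Cpa3, Ms4a2 and Mcpt8 lie right of 0 with filled points in both MPP2-labelled and MPP4-labelled cells.

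Whether the KO-to-WT difference itself differed between populations was tested as an interaction of genotype and population in the same model. It passed for 5 of the 8 genes, against 17.7% of all genes: Il1rl1, Cpa3, Ms4a2, Mcpt8 and Prss34. Set against the mean of the other 3 populations, the difference in MPP2-labelled cells was larger for 4 genes and smaller for 0, where 4.21% of all genes were larger and 6.01% smaller. These were Il1rl1 (log2 4.4 ± 0.27; edgeR adjusted p = 8.54e-16), Cpa3 (1.3 ± 0.35; edgeR adjusted p = 0.0108), Ms4a2 and Prss34. The same test for MPP4-labelled cells, added after the values were seen, gave 3 larger (Cpa3, Ms4a2 and Mcpt8) and 1 smaller (Il1rl1), where 1.4% of all genes were larger and 0.624% smaller. Il1rl1 differed there by a log2 of -2.74 ± 0.28 (edgeR adjusted p = 4.1e-09) and Cpa3 by 1.7 ± 0.35 (edgeR adjusted p = 0.00256). For the other genes these differences include groups at the floor, so only their calls are given.

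Averaged over the 4 populations, KO exceeded WT for Cpa3 (log2 1.17 ± 0.16; edgeR adjusted p = 1.11e-07), Il1rl1 (0.65 ± 0.15; edgeR adjusted p = 0.000324) and Mcpt8 (edgeR adjusted p = 0.0358), 3 higher and 0 lower, against 22.9% of all genes higher and 30.3% lower. The average for Il1rl1 hides its opposite directions. Within KO, MPP2-labelled cells stood above the mean of the other 3 populations for 7 genes, all but Fcer1a, and below it for 0, where 7.87% of all genes stood above and 4.45% below. KO MPP4-labelled cells alone averaged more than KO MPP2-labelled cells for Cpa3 (138 against 115 CPM), Ms4a2 (88.3 against 23.9) and Mcpt8 (38.8 against 25.7, overlapping). For Il1rl1, Hdc, Prss34 and Gzmb they averaged less, with overlap for all but Il1rl1. Ms4a2, Gzmb, Mcpt8 and Prss34 had a group at the floor in this contrast within KO. Within WT the same contrast gave 2 above (Cpa3 and Hdc) and 1 below (Il1rl1), where 16.7% of all genes stood above and 9.68% below. The comparison of KO with WT and the contrasts within a genotype share libraries. Another scaling, by median-of-ratios size factors, left these counts of the 8 genes in the 4 populations as they were but shifted all genes. The median log2 fold change of all genes became -0.46 in place of -0.31 in HSC, -0.24 in place of -0.08 in MPP4-labelled cells, -0.33 in place of -0.22 on average and -0.26 in place of -0.13 within WT. The share of all calls that were higher became 52.2% in place of 64% in MPP1, 44.1% in place of 63.8% in MPP4-labelled cells, 55.6% in place of 41.2% for MPP2-labelled cells set against the other 3 populations, 52.9% in place of 69.2% for MPP4-labelled cells set against them, and 50.8% in place of 63.3% for MPP2-labelled cells within WT. Of the calls in MPP4-labelled cells given below for other genes, this scaling removed Kit among the cytokine receptors, Btk, Syk, Vav1 and Inpp5d in the immunoglobulin E pathway, Ndst2 among the granule genes and Irf8 among the monocyte markers, and among the transcription factors it added Runx1 as lower (log2 -0.19; edgeR adjusted p = 0.00588). In HSC it removed Stat5b among the transcription factors.

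The levels of the genes were compared with each other per kilobase of exon. In KO MPP2-labelled cells Cpa3 had 75.8 CPM per kilobase, Il1rl1 46, Mcpt8 25.8, Prss34 12.8, Ms4a2 8.5, Hdc 7.31, Gzmb 4.88 and Fcer1a 3.17. In KO MPP4-labelled cells the order was Cpa3 91, Mcpt8 38.9, Ms4a2 31.4, Prss34 11.4, Hdc 6.03, Il1rl1 5.87, Fcer1a 3.4 and Gzmb 2.53. In WT, Cpa3 was again first, at 17.1 CPM per kilobase in MPP2-labelled and 16.8 in MPP4-labelled cells. Across the 8 group means of log2 CPM, Cpa3 correlated with Prss34 (Pearson r = 0.96), Mcpt8 (0.95), Ms4a2 (0.93) and Hdc (0.89), whereas r between Il1rl1 and the other 7 genes was 0.42 to 0.62. These r describe 8 points that share libraries and depth, and carry no test.

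The bases before the start sites of the 5 genes called in MPP2-labelled cells are shown. Cpa3, Ms4a2 and Mcpt8 were also called higher in KO MPP4-labelled cells, while Prss34 was not called and Il1rl1 was lower there. Il1rl1 has a distal and a proximal start site that the gene-wide counts cannot tell apart. Sequences are from RefSeq on build GRCm38.p6, 5′ to 3′ on the strand of the gene, and end at the base before the start except for Mcpt8. Capitals mark a GATA motif (AGATAA or AGATAG or TGATAA or TGATAG) or a RUNX motif (TGTGGT) on either strand, and no 2 matches overlapped.
Cpa3, chr3:20242182-20242431 (minus strand): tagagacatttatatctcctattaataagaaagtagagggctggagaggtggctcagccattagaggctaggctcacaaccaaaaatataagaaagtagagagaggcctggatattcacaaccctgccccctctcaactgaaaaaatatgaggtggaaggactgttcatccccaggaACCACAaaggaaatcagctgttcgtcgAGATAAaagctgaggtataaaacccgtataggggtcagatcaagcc
Ms4a2, chr19:11623720-11623969 (minus strand): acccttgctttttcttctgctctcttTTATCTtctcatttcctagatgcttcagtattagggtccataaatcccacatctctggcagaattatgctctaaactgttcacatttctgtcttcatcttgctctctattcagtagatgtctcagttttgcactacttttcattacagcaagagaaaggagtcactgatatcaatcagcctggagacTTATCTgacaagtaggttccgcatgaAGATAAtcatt
Prss34, chr17:25298144-25298393 (plus strand): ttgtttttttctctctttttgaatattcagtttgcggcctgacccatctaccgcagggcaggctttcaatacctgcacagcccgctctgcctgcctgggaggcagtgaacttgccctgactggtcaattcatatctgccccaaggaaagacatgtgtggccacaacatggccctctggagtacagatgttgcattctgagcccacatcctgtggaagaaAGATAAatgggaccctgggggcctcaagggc
Mcpt8, chr14:56085274-56085447 (minus strand): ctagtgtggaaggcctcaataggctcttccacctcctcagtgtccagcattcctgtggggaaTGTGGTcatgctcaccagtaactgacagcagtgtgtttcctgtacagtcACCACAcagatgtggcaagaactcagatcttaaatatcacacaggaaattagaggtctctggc
Il1rl1 distal start, chr1:40429320-40429569 (plus strand): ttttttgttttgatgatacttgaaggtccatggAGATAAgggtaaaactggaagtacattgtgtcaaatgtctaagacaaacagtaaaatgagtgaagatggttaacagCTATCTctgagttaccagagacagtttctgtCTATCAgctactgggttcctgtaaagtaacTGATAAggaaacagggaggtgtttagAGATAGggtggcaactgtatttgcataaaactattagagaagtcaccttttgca
Il1rl1 proximal start, chr1:40439379-40439628 (plus strand): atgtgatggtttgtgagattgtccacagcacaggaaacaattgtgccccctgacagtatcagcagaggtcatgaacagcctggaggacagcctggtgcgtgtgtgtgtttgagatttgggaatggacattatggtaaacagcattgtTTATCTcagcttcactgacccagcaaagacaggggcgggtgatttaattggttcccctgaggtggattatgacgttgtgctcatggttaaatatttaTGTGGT
The Mcpt8 window is printed without the 76 bases next to the start, which lie in an annotated exon, and its 174 bases are those farther upstream. The windows of 250 bases differed in their letters. The distal start of Il1rl1 held 5 GATA matches and the proximal start 1, Ms4a2 held 3, Cpa3 and Prss34 held 1 each, and Mcpt8 held 0 GATA but 2 RUNX matches. Over all 8 genes, 6 had a GATA match and 5 a RUNX match in at least 1 window. By window, 7 of 9 held a GATA and 5 of 9 a RUNX match. These include Fcer1a, with 1 of each, and Gzmb, with 2 RUNX matches. The bases after the starts used for Fcer1a and Gzmb were not found in a GENCODE transcript. Of 32851 mouse promoter windows of the same length, 26.5% held a GATA and 14.0% a RUNX match. A further motif, the STAT palindrome TTCNNNGAA, was in 0 windows of the 8 genes and in 7.02% of all windows. A match is a run of letters and does not show that a factor binds there.

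For each list below, the shares of all genes called higher and lower in KO serve for comparison. They were 18.3% and 24.8% in HSC, 8.71% and 4.9% in MPP1, and 3.73% and 4.17% in MPP2-labelled and 11.4% and 6.47% in MPP4-labelled cells. Among other genes of the mast cell and basophil programme, those for transcription factors were mostly higher in KO HSC (7 of 9 tested higher, 0 lower) and mixed elsewhere (3 higher and 0 lower in MPP4-labelled, 3 and 1 in MPP2-labelled, 2 and 2 in MPP1). Their median log2 fold change in HSC was 0.67, against -0.31 for all genes. Gata2, which both lineages need, was called higher in KO in all 4 populations. It had 1539, 1263 and 1592 counts in KO and 767, 796 and 704 in WT HSC, and 1007, 1265 and 925 in KO and 427, 783 and 415 in WT MPP4-labelled libraries, without overlap. Its log2 fold change was 1.23 ± 0.16 in HSC (edgeR adjusted p = 5.17e-08), 0.74 ± 0.17 in MPP1 (0.00205), 0.59 ± 0.17 in cells labelled MPP2 (0.0253) and 0.96 ± 0.16 in those labelled MPP4 (1.95e-05). Mitf, which mast cells need, was higher in KO in HSC (0.64 ± 0.15; edgeR adjusted p = 0.000555) and MPP2-labelled cells (0.92 ± 0.15; edgeR adjusted p = 2.01e-05). Bhlhe40 was higher in MPP2-labelled cells (2.63 ± 0.73; edgeR adjusted p = 0.0159), and Runx1 was lower there (-0.58 ± 0.05; edgeR adjusted p = 1.38e-11).

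Of 8 cytokine receptor genes of the programme, 4 were higher and 0 lower in KO MPP4-labelled cells, 2 higher and 0 lower in KO MPP1 (1 higher with median-of-ratios scaling), 1 higher and 2 lower in KO HSC, and 0 of 8 passed in MPP2-labelled cells by edgeR (1 at an unadjusted p below 0.05, and 0 by DESeq2 and by limma-voom after adjustment). The median log2 fold change was 0.96 in MPP4-labelled and -0.18 in MPP2-labelled cells. Csf2rb, the common beta chain through which interleukin 3 signals, had 1106, 933 and 1203 counts in KO and 236, 227 and 155 in WT MPP4-labelled libraries, 5.16-fold higher in KO (log2 2.37 ± 0.16; edgeR adjusted p = 2.49e-15). In MPP2-labelled cells it had 756, 742 and 588 in KO and 635, 738 and 630 in WT (log2 0.30 ± 0.15; edgeR adjusted p = 0.231), and it was lower in KO HSC (-0.74 ± 0.16; edgeR adjusted p = 0.000278). Csf2rb2, the interleukin 3 receptor beta chain of the mouse and a near copy of Csf2rb whose reads the counting could have split, was also higher in KO MPP4-labelled cells (1.44 ± 0.40; edgeR adjusted p = 0.00832). Il1rap, the partner chain of the Il1rl1 product, passed the test in no population.

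Of 12 genes that carry the signal of the immunoglobulin E receptor, 8 were higher and 0 lower in KO HSC, 4 higher and 0 lower in KO MPP1, 1 higher and 4 lower in KO MPP2-labelled cells, and 7 higher and 0 lower in KO MPP4-labelled cells. Their median log2 fold changes were 0.49 in HSC and 0.25 in MPP1, against -0.10 for MPP2-labelled cells and 0.36 for MPP4-labelled cells. Over all genes the medians were -0.31, -0.10, -0.07 and -0.08 in that order of populations. Of all genes 18.3%, 8.71%, 3.73% and 11.4% were called higher in the same order. With median-of-ratios scaling 8 of the 12 were still called higher in HSC, 2 in MPP1 and 3 in MPP4-labelled cells. Gab2, an adaptor, was higher in KO in both, with a log2 of 0.86 ± 0.11 in MPP4-labelled (edgeR adjusted p = 1.26e-07) and 0.52 ± 0.11 in MPP2-labelled cells (edgeR adjusted p = 0.001). Plcg2, a phospholipase, was higher in KO MPP4-labelled cells (0.47 ± 0.08; edgeR adjusted p = 3.43e-05) and lower in KO MPP2-labelled cells (-0.58 ± 0.08; edgeR adjusted p = 8.93e-07). Inpp5d, a phosphatase that limits the signal, was lower in KO MPP2-labelled cells (-0.43 ± 0.07; edgeR adjusted p = 6.54e-05) and higher in KO MPP4-labelled cells (0.29 ± 0.08; edgeR adjusted p = 0.00521), the second of which was lost with median-of-ratios scaling (0.12; edgeR adjusted p = 0.295). These genes also serve other receptors of blood cells.

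The granule genes outside the 8 were mostly too low to follow. Of 8 tested, 0 passed in MPP2-labelled cells by edgeR (5 higher at an unadjusted p below 0.05, and after adjustment 0 by DESeq2 and 2 higher by limma-voom), and 3 were higher and 1 lower in KO MPP4-labelled cells. Their median log2 fold change in MPP2-labelled cells was 1.45, or 0.95 with groups at the floor set to 3 counts per library, and -0.30 in MPP4-labelled cells. Mcpt4, a chymase of connective tissue mast cells, had 32, 85 and 53 counts in KO and 15, 19 and 13 in WT MPP2-labelled libraries, without overlap, and missed the threshold (log2 2.05 ± 1; edgeR adjusted p = 0.228). Mcpt2, a chymase of mucosal mast cells, had 18, 12 and 12 counts in KO and 0, 0 and 1 in WT MPP2-labelled libraries (edgeR adjusted p = 0.0595). Slc18a2, which loads histamine into vesicles, was higher in KO MPP4-labelled cells (log2 0.88 ± 0.13; edgeR adjusted p = 1.82e-06), as was Srgn, the granule proteoglycan core (0.61 ± 0.14; edgeR adjusted p = 0.0018). Slc18a2 missed the threshold in MPP2-labelled cells (0.32 ± 0.14; edgeR adjusted p = 0.15).

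Of the surface and cytokine genes, 3 of 11 were higher and 1 lower in KO MPP2-labelled cells and 1 higher and 2 lower in KO MPP4-labelled cells, with median log2 fold changes of 0.92 and -0.24. Il4, a cytokine of basophils and mast cells, had 42, 112 and 101 counts in KO and 11, 24 and 9 in WT MPP2-labelled libraries (log2 2.75 ± 0.46; edgeR adjusted p = 3.32e-05), and 5, 41 and 18 in KO and 66, 88 and 51 in WT MPP4-labelled ones (-1.67 ± 0.44; edgeR adjusted p = 0.00541). Il4 thus shared the directions of Il1rl1 in these 2 populations. In HSC and MPP1, where Il1rl1 was called, Il4 was not (0.22 ± 0.40 and 0.06 ± 0.41, edgeR adjusted p = 0.673 and 0.948). Cd200r3, a receptor of basophils and mast cells, was higher in KO MPP2-labelled cells (2.45 ± 0.66; edgeR adjusted p = 0.0124), and Itga2 was lower (-1.47 ± 0.30; edgeR adjusted p = 0.00071). Of 6 lipid mediator genes, 1 was higher and 1 lower in each of KO MPP2-labelled and KO MPP4-labelled cells. Alox5, which starts leukotriene synthesis, was the higher one in MPP2-labelled cells, at 269, 478 and 263 counts in KO and 41, 56 and 27 in WT (3.24 ± 0.33; edgeR adjusted p = 5.95e-10), and was also higher in KO MPP1 (2.15 ± 0.32; edgeR adjusted p = 2.28e-06). Ptgs2 was the lower one (-3.56 ± 0.75; edgeR adjusted p = 0.00107).

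**Figure D3:**
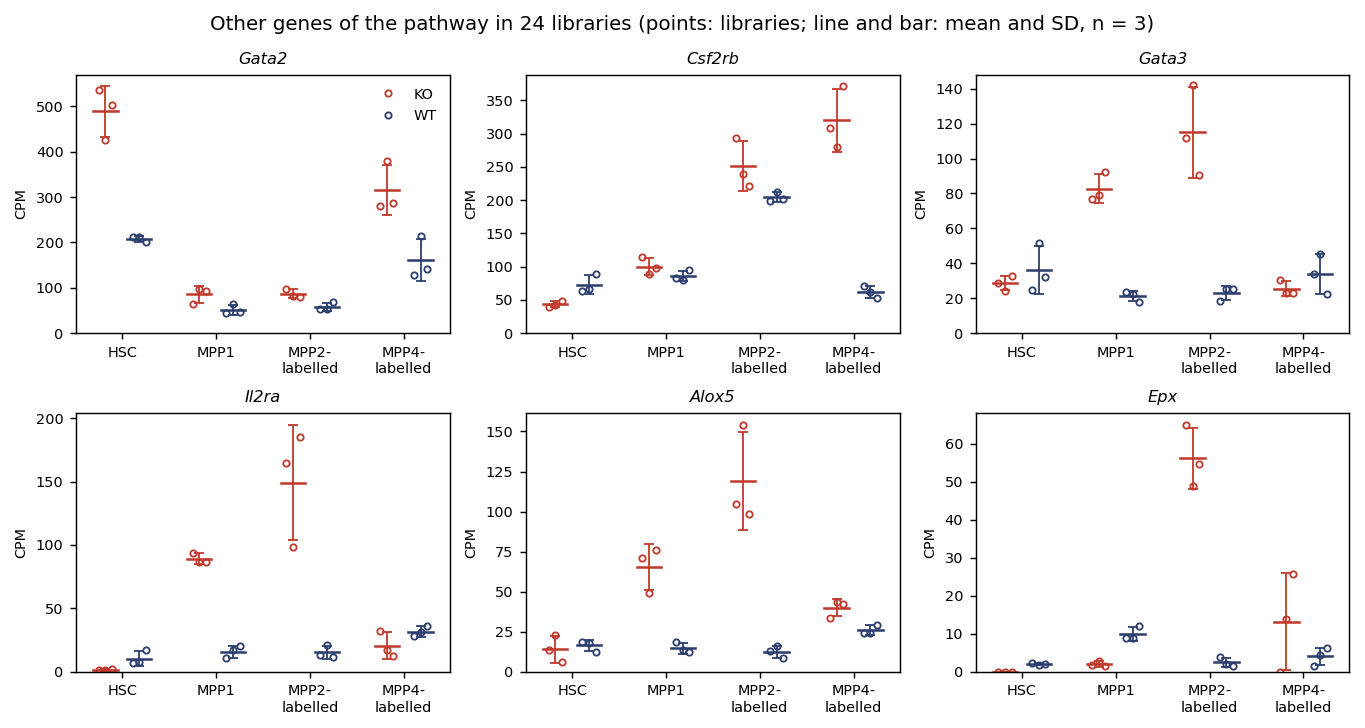
CPM (linear axes, each gene on its own scale) of 6 other genes in each of the 24 libraries, KO left of WT within each population; points are libraries, lines and bars the mean and SD of 3. Gata2 is higher in KO in every population, Csf2rb in MPP4-labelled cells, Gata3, Il2ra and Alox5 in MPP1 and MPP2-labelled cells, and Epx in MPP2-labelled cells.

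Markers of other cell types moved beside these genes, and their part in the results was not tested. Il1rl1 is also a gene of group 2 innate lymphoid cells. Of 6 tested markers of those cells, 3 were higher and 1 lower in KO MPP1, 2 higher and 0 lower in KO MPP2-labelled cells, 0 higher and 2 lower in KO MPP4-labelled cells, and 0 higher and 3 lower in KO HSC. Their median log2 fold change was 1.26 in MPP1 and 1.15 in MPP2-labelled cells, against -0.10 and -0.07 for all genes. Il2ra, a receptor chain for interleukin 2, had 424, 305 and 493 counts in KO and 41, 74 and 37 in WT MPP2-labelled libraries (log2 3.28 ± 0.34; edgeR adjusted p = 8.59e-10). Gata3, their defining factor, had 289, 441 and 241 in KO and 59, 88 and 80 in WT (2.31 ± 0.27, edgeR adjusted p = 2.37e-08). The 4 not called there had log2 fold changes of -0.33 ± 0.12 (Rora), -0.56 ± 0.68 (Icos), 0.55 ± 0.31 (Il7r) and 1.75 ± 1.14 (Klrg1). Rora was the 1 called lower in KO MPP1 (-0.56 ± 0.12, edgeR adjusted p = 0.000669). It was also lower in KO MPP4-labelled cells (-0.54 ± 0.12, edgeR adjusted p = 0.000956). The summed level of the 7 markers was 522 to 604 CPM in KO and 312 to 364 CPM in WT MPP2-labelled libraries, 549 to 594 in KO and 533 to 573 in WT MPP1, 284 to 336 in KO and 451 to 494 in WT MPP4-labelled and 745 to 905 in KO and 962 to 1060 in WT HSC libraries.

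Epx and Prg2, genes of eosinophils, were higher in KO MPP2-labelled cells beside the granule genes. Epx, eosinophil peroxidase, had 167, 152 and 146 counts in KO and 12, 7 and 5 in WT MPP2-labelled libraries, 22.6-fold higher in KO (log2 4.50 ± 0.76; edgeR adjusted p = 4.88e-05), and 0, 46 and 83 in KO and 5, 16 and 18 in WT MPP4-labelled ones (1.71 ± 0.70; edgeR adjusted p = 0.0847). Prg2, the major basic protein, had 50, 24 and 41 in KO and 0, 9 and 1 in WT MPP2-labelled libraries (3.79 ± 1.14; edgeR adjusted p = 0.0299). These 2 of 5 tested were called higher and 0 lower. Among the other tested markers, Siglecf had 8, 7 and 7 counts in KO and 16, 17 and 21 in WT MPP2-labelled libraries (-1.05 ± 0.83; edgeR adjusted p = 0.513), Ccr3 had 0 in all 3 KO and 1, 2 and 2 in WT libraries, and Il5ra had 30, 57 and 91 in KO and 35, 34 and 25 in WT (1.16 ± 0.62; edgeR adjusted p = 0.29). Epx was called lower in KO HSC (edgeR adjusted p = 0.00403, with KO at the floor) and KO MPP1 (-2.28 ± 0.75; edgeR adjusted p = 0.0341). Of 9 listed, Ear1 and Ear2 had 0 counts in every library. The list summed to 79.6 to 108 CPM in KO and 19.1 to 20 CPM in WT MPP2-labelled libraries, and to 17.8 to 40.4 in KO and 32.3 to 39.7 in WT MPP4-labelled ones.

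Neutrophil and monocyte markers were higher in KO MPP4-labelled cells for 7 of 11 genes and lower for 0, Mpo among them (log2 1.47 ± 0.12; edgeR adjusted p = 2.98e-12), with a median log2 fold change of 1.47 over the 11, and summed to 449 to 479 CPM in KO and 170 to 219 CPM in WT. In MPP2-labelled cells 2 were higher, Ly6c2 (1.76 ± 0.36; edgeR adjusted p = 0.000599) and Irf8 (1.07 ± 0.30; edgeR adjusted p = 0.0176), and 0 lower, with sums of 2510 to 2550 CPM in KO and 1970 to 2160 in WT. In MPP1 0 were higher and 4 lower (5 with median-of-ratios scaling), with a median of -1.86, or -1.39 with groups at the floor set to 3 counts per library. Mpo was lower there (-4.67 ± 0.18, edgeR adjusted p = 1.08e-23). HSC had 0 higher and 3 lower, Mpo among them (-1.19 ± 0.23, edgeR adjusted p = 4.53e-05). Erythroid markers were lower in KO for 3 of 9 genes in MPP2-labelled and 6 of 9 in MPP4-labelled cells, and higher for 0, with Car1 lower in all 4 populations. In MPP1 7 of 9 were lower and 0 higher (8 lower with median-of-ratios scaling), and in HSC 6 were lower and 1 higher. Of all genes, 4.9% were lower in MPP1 and 24.8% in HSC, and 11.4% were higher in MPP4-labelled cells. Of 8 tested T and NK cell markers 0 passed in MPP2-labelled cells by edgeR, also at an unadjusted p below 0.05 and by DESeq2 and limma-voom, and of 5 plasmacytoid dendritic cell markers 0 passed there (2 lower at an unadjusted p below 0.05, and 1 lower after adjustment by DESeq2 and by limma-voom). T and NK cell markers summed to 11 to 33.4 CPM in KO and 16.5 to 25.3 CPM in WT MPP2-labelled libraries, with Prf1 and Klrb1c at 0 in KO.

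The genes whose levels were most like those of the 8 were found by Pearson correlation of log2 CPM over the 24 libraries among 12534 named genes averaging 5 CPM or more. For Il1rl1 they included Il2ra (r = 0.951), Skap1 (0.934), Grap2 (0.895) and Rasgrp1 (0.894), genes of T cell receptor signalling and interleukin 2 reception. Skap1 was, like Il1rl1, called lower in KO HSC (log2 -2.42 ± 0.23), higher in KO MPP1 (1.35 ± 0.19) and KO MPP2-labelled cells (1.71 ± 0.19), and lower in KO MPP4-labelled cells (-0.69 ± 0.19). Because it was picked by its likeness to Il1rl1 in these same libraries, the shared directions are no separate result. Il2ra, Grap2 and Rasgrp1 were not called in MPP4-labelled cells (-0.62 ± 0.32, -0.13 ± 0.25 and 0.12 ± 0.44). For Cpa3 they were Ms4a2 (0.909), Lmo4 (0.897), Csgalnact2 (0.888), the light chain segment Igkv14-126 (0.887) and Rps6ka2 (0.881). For Mcpt8 they were Csf2rb (0.876), Cpa3 (0.874) and 3 immunoglobulin segments, Igkv4-68 (0.855), Ighv11-2 (0.854) and Ighv1-22 (0.828). The libraries share groups, depth and background, so these r are descriptions.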

How the data were processed

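The authors deposited 1 table of raw read counts by gene for 24 libraries, whose columns were matched to samples by the description field; no normalization had been applied. Per the submitters' processing notes, mm39 was the build, and SAMtools 1.12 and DESeq2 are listed without a role; the aligner, counter, annotation and strand setting are not given in the sources used here. Of 56748 genes, 21964 passed filterByExpr. edgeR 4.0.16 under R 4.3.3 fitted 1 quasi-likelihood model to all 24 libraries, with 8 group means, TMM scaling, 16 residual degrees of freedom and a common biological coefficient of variation of 0.393; the script was tested on simulated counts. A gene was called at a Benjamini-Hochberg adjusted p below 0.05; SE is the size of the log2 change divided by the root of F. CPM use TMM-scaled totals, ± SD of 3. No fold is given where all 3 libraries of KO or WT had 3 counts or fewer. Exon lengths, strands and spans (for 52073 genes) come from GENCODE vM21 on GRCm38, so per-kilobase and background values are approximate. Named are the 8 genes, up to 3 genes of each other list with the smallest p in MPP2-labelled cells, and the 5 genes most like Il1rl1, Cpa3 or Mcpt8; further genes were named after their values were seen, and some items are not reported here. The 8 genes and the lists were chosen with earlier results of these data known. Alternatives used DESeq2 1.42.0, limma 3.58.1, other scalings and filters, and each library left out.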

Additional observations from a re-analysis of the deposited data

Results flagged for a closer look

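For 5 of the 8 genes the KO-to-WT difference itself differed between the 4 populations, by the interaction of genotype and population in edgeR's quasi-likelihood model with Benjamini-Hochberg adjustment over all genes. Il1rl1 had an adjusted p = 6.48e-19, with all 3 KO libraries above WT in MPP1 and MPP2-labelled cells and all 3 below WT in HSC and MPP4-labelled cells. Ms4a2 had an adjusted p = 7.69e-06 and Cpa3 an adjusted p = 8.93e-06 by edgeR, each with all 3 KO libraries above WT in MPP2-labelled and MPP4-labelled cells. Mcpt8 had an edgeR adjusted p = 0.000942 with the same 2 populations higher. Prss34 had an edgeR adjusted p = 0.0139. Over 30 alternatives the adjusted p reached 7.12e-08 for Il1rl1, 0.00906 for Ms4a2, 0.0716 for Cpa3, 0.137 for Mcpt8 and 0.11 for Prss34; the last 3 missed the threshold with the background subtracted.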

How the results depend on the processing

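With the background subtracted (18601 genes fitted), 1 of the 8 genes was called in HSC (Il1rl1, against 3), 3 in MPP2-labelled cells (Il1rl1, Cpa3 and Ms4a2, against 5), 1 on average (Cpa3, against 3), 1 for MPP2-labelled cells set against the other populations (Il1rl1, against 4), 1 for MPP4-labelled cells set against them (Il1rl1, against 4), 1 within WT (Cpa3, against 3) and 2 for the interaction (Il1rl1 and Ms4a2, against 5). The HSC count was also 1 with no filter on low counts and with only the libraries compared, and the MPP1 count was 2 with DESeq2 (Il1rl1 and Ms4a2). Leaving out 1 library gave 1 to 3 calls in HSC (1 without WT replicate 3 or any KO replicate), 1 to 2 in MPP1 (2 without KO replicate 2), 3 to 5 in MPP2-labelled cells (3 without WT replicate 2 or 3 or KO replicate 1), 4 to 4 in MPP4-labelled cells and 5 to 6 for the interaction. The directions of Il1rl1 in all 4 populations, and of Cpa3, Ms4a2 and Mcpt8 in MPP4-labelled cells, and their calls, held under 8 alternatives and each library left out.

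Reversed were log2 fold changes of low genes that were not called: Fcer1a in MPP1 (-0.19) became 0.48 with the background subtracted and ranged from -1.39 to 0.55 with libraries left out (0.55 without WT replicate 3, 0.37 without KO replicate 1); Mcpt8 in MPP1 ranged from -1.71 to 0.06 (0.06 without KO replicate 2); Gzmb in MPP4-labelled cells (0.40) became -1.36 with limma-voom and ranged from -3.87 to 1.18. The causes were not tested. Same-numbered KO and WT libraries of a population did not deviate together (r of -0.005 to 0.016 over 12 pairs, 0 above 0.1). A low r over all genes does not show that libraries were unpaired, and same-numbered libraries of different populations were not compared. With the replicate block HSC had 2 calls, MPP1 had 1, cells labelled MPP2 had 5 and those labelled MPP4 had 4, and Gzmb in MPP4-labelled cells became -0.31. With 2540511 to 3807003 counts per library, differences among genes at 3 counts or fewer were not detectable.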
